A study of Rattus norvegicus with 21 samples.

Results

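Astrocytes from the forebrain of Sprague Dawley rat pups were compared in a culture dish and straight from the brain at about the same total age. The comparison used 6 of the 21 arrays of the series and 14217 genes, 1 probe set each. The HBEGF P1 cultures (3 arrays) held cells isolated at postnatal day 1 by panning on ITGB5, an integrin subunit on the cell surface, and then kept for 7 days in a medium without serum, to which 5 ng/ml HBEGF was added. The fresh P7 cells (3 arrays) were panned on the same integrin at postnatal day 7 and lysed directly, without culture and without HBEGF. Fresh P1 cells (3 arrays), panned at postnatal day 1 and lysed directly, mark the age at which the cultures began, and their values are given beside the others. All 3 groups were of 1 strain, and the labels name no genetic change in any of them. They call the 3 arrays of a group biological replicates, so the p values below measure the spread between such preparations. That spread was pooled over all 21 arrays in 7 groups, not taken from the 6 arrays alone. A standard error can therefore be wider or narrower than the 6 arrays of a gene would give. The labels' text does not say how many pups went into each. Panning enriches for a cell type and leaves some cells of other types, whose markers were measured too. RNA was hybridised to Affymetrix Rat Genome arrays, and levels are log2 of the deposited intensity.

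HBEGF is a growth factor of the EGF family that binds the EGF receptor, and in serum-free medium it keeps panned astrocytes alive. In the first postnatal week, forebrain astrocytes mature from progenitor-like cells and begin to take up the work of the adult cell, which includes clearing glutamate and GABA from synapses, supplying glutamine, lipids and active thyroid hormone to neurons, and sensing transmitters through their own receptors. Genes of the first response to a stimulus, such as Fos and Egr1, are transcribed within minutes in nearly any cell without new protein being made, and their transcripts are short-lived.

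Of the 14217 genes, 546 (3.84%) were higher in the HBEGF P1 cultures and 896 (6.3%) were lower, together 1442 (10.1%). A gene was called when limma's p, adjusted by the method of Benjamini and Hochberg over all 31042 probe sets, was under 0.05 and the log2 change, HBEGF P1 minus fresh P7, was at least 1 in size. Among the called genes, falls were both more frequent and larger. Of them, 274 fell by at least 4-fold against 88 that rose by as much, and 38 fell by at least 16-fold against 8 that rose. The median change over all genes was 0.07, and the median standard error (SE) was 0.17. For 1438 of the 1442 called genes the 3 arrays of a group all lay on one side of the 3 arrays of the other. This alone was common, since 44.9% of all genes had arrays that did not overlap, and there the balance was the other way, with 25.4% of all genes higher on each culture array and 19.5% lower. The count of higher genes ranged from 409 to 604 when 1 array was left out, and the count of lower genes from 793 to 881.

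**Figure D1:**
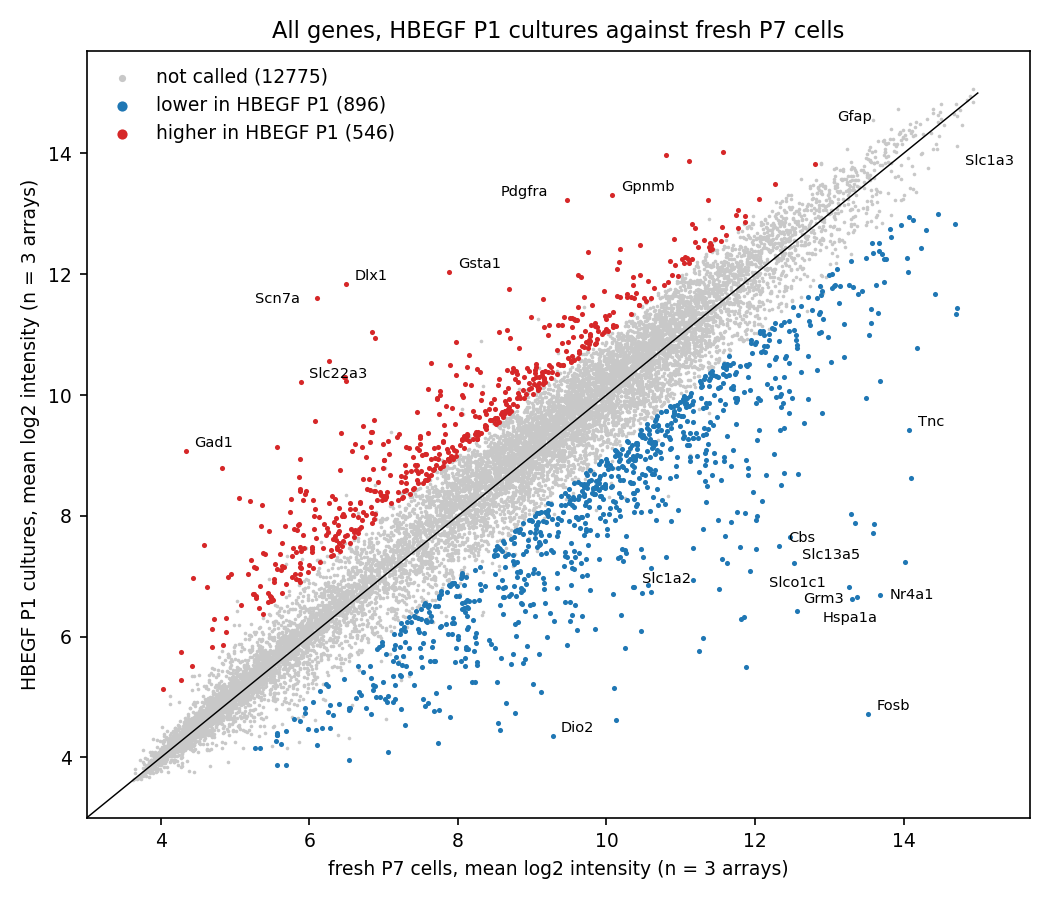
Mean log2 intensity of each gene in the fresh P7 cells (x axis) and in the HBEGF P1 cultures (y axis), 3 arrays per group, with the 546 genes called higher in red and the 896 called lower in blue. The line marks equal levels, and the points far below it at the right (Fosb, Nr4a1, Grm3, Slco1c1, Hspa1a) are genes that were bright in the fresh cells and dim in culture.

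The arrays of a group were alike. Spearman's rho across the genes was 0.986 to 0.989 among the HBEGF P1 cultures, 0.983 to 0.989 among the fresh P7 cells and 0.950 to 0.959 between them. Astrocyte markers were read beside the label, and they did not all stay level. Gfap, the astrocyte intermediate filament, had log2 intensities of 14.46, 14.20 and 14.53 in the HBEGF P1 cultures and 14.04, 13.67 and 13.79 in the fresh P7 cells, and Gja1, Aqp4, Slc1a3, S100b and Apoe also had means above 13 in both groups. Of 28 measured astrocyte markers, however, 8 were called lower in culture, 0 higher and 20 neither way. Among the lower ones, Slc1a2 and Cbs had culture means of 6.82 and 7.50. Some markers of other cells were bright in culture, such as Pdgfra with a mean of 13.23, so the bright astrocyte markers alone do not settle the make-up of the cultures. Itgb5, the antigen used for panning, fell from 11.86, 12.14 and 12.34 in the fresh P7 cells to 10.58, 10.70 and 10.89 in the cultures (log2 change -1.39 ± 0.32, adjusted p = 0.00433). The deposited values carry no detection call, and 289 of the 896 lower genes had a culture mean under 7.11, the median level over all genes, as did the fresh P7 mean of 200 of the 546 higher genes. The size of such changes, folds included, is less certain than their direction.

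Genes were grouped into 37 lists, and the share of each list that was called can be read against the shares over all genes, 3.84% higher and 6.3% lower. Immediate-early genes had the highest share of lower members, followed by sterol synthesis genes, chemokine and cytokine genes and transmitter transporters. The lists with the highest shares of higher members were S100 and annexin genes, oligodendrocyte progenitor markers and neuron markers. In 15 lists limma called no rise, and at an unadjusted p under 0.05 these lists held 0 to 11 higher members, the most in the respiratory chain list.

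**Figure D2:**
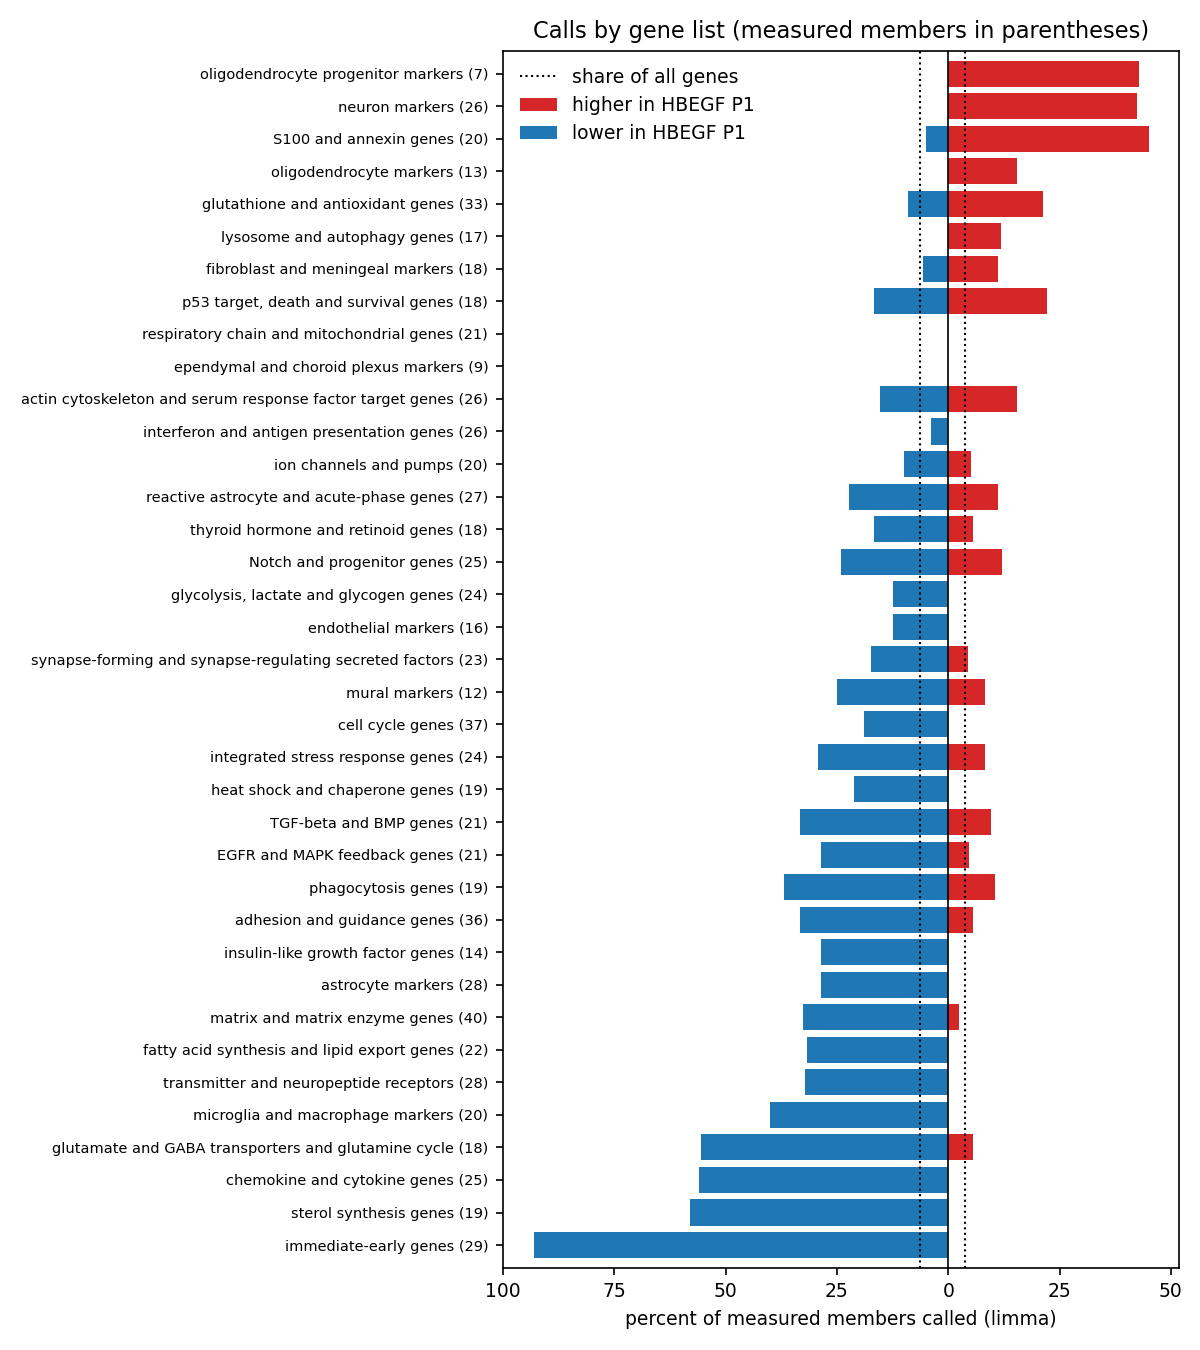
Percent of the measured members of each gene list called higher (red, to the right of 0) or lower (blue, to the left of 0) in the HBEGF P1 cultures, with the number of measured members in parentheses and the shares over all genes as dotted lines. The bar of the immediate-early genes reaches 93.1% on the lower side, and the bar of the S100 and annexin genes reaches 45.0% on the higher side.

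The immediate-early genes were the group that differed most. Of 29 measured members, 27 fell and none rose, with a median change of -3.55 against 0.07 over all genes, and leaving out 1 array at a time gave 26 or 27. Fosb, a partner of Jun in the AP-1 transcription factor, read 4.78, 4.79 and 4.58 in the cultures and 13.23, 13.67 and 13.67 in the fresh P7 cells. The gene was dim on each culture array and bright on each fresh P7 array, and the groups were far from overlapping. The difference was 448-fold (log2 change -8.81 ± 0.15, adjusted p = 1.99e-16), the largest fall of any gene called.

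The orphan nuclear receptor Nr4a1 read 6.81, 6.69 and 6.58 in the cultures against 13.68, 13.72 and 13.64 in the fresh P7 cells (-6.98 ± 0.22, adjusted p = 1.59e-12), and its relative Nr4a2 fell by 5.88. The zinc finger factors Klf4 and Klf2, which act in cell identity and in the vessel wall, fell by 6.78 and 6.14. Atf3, a stress-induced factor of the ATF family, read 8.16, 7.18 and 8.26 against 13.40, 13.75 and 13.66 and fell by 5.74 ± 0.44. In each of these genes the replicates of one group lay much closer to each other than to the other group. Other members fell as well, among them Arc, a synaptic protein (-5.53), the MAP kinase phosphatase Dusp1 (-5.47) and Csrnp1, a nuclear protein (-5.52). The members that were not called were Ier5 (-0.52) and Egr3 (0.14), and Egr3 was dim in both groups.

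The fresh P1 cells had levels close to those of the fresh P7 cells for these genes. Fosb read 13.41, 13.33 and 13.31 there, and Nr4a1 read 13.62, 13.58 and 13.56. In the list as a whole, 26 of 29 members were lower in the HBEGF P1 cultures than in the fresh P1 cells (all genes, 4.49%), and 1 was higher in the fresh P7 than in the fresh P1 cells (all genes, 1.37%, and 1.55% in either direction). These comparisons share arrays with the first one and are given as values only. Both fresh groups were panned and lysed, and the cultures were lysed after 7 days, so the handling just before lysis and the state of the cells in the brain cannot be told apart.

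Promoter sequences were looked at because these genes moved together. In RefSeq's table for the GRCr8 build, 16 of the 27 lower immediate-early genes had a promoter, and the 250 bases upstream of the start were searched on both strands for the cyclic AMP response element TGACGTCA, which reads the same on both strands and is bound by CREB and ATF factors, and for the CArG box, the site of serum response factor. The response element was present in 4 of the 16 promoters and the CArG box in 4, together 8 (50%). Over the 11733 genes of the array with a promoter in the table, 2.64% held the response element and 1.24% the CArG box, together 3.82%. Of the 714 lower genes with a promoter, 6.86% held either site. Of the 17 measured immediate-early genes with a promoter, called or not, 8 did (47.1%), so the share describes the list and not the fall. Fosb, Nr4a1, Klf4 and Nr4a2, with the largest falls among the 16, held neither. A part of these sites in the falls was not tested. The 6 stretches below are shown as examples of either site, which is in capitals, each with 15 flanking bases on both sides, 5′ to 3′ along the gene. A match describes letters, not binding.

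Dusp1, response element, chr10:17184714-17184751, plus strand: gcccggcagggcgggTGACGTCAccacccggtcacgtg
Maff, response element, chr7:112792721-112792758, plus strand: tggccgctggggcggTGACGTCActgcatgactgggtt
Ier2, response element, chr19:40399292-40399329, plus strand: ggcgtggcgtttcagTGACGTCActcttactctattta
Egr2, CArG box, chr20:21054500-21054539, minus strand: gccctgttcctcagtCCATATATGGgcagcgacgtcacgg
Zfp36, CArG box, chr1:92799116-92799155, minus strand: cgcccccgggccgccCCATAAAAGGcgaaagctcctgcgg
Klf6, CArG box, chr17:69458655-69458694, minus strand: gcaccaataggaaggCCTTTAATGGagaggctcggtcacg

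Of the genes with a response element shown, Maff, a small AP-1-like factor, read 6.49, 5.71 and 5.71 in the cultures and 10.80, 11.59 and 11.52 in the fresh P7 cells (-5.33), and Ier2 fell by 3.55 ± 0.12. Of the genes with a CArG box shown, Egr2 read 9.16, 8.17 and 8.20 against 12.31, 12.08 and 12.65 (-3.84), Zfp36, which destabilises short-lived transcripts, fell by 3.52, and Klf6 fell by 3.41. The arrays of the groups did not overlap in any of these genes. Srf itself, the gene of serum response factor, read 10.08, 10.02 and 10.08 in the cultures and 12.10, 12.53 and 12.73 in the fresh P7 cells (-2.39 ± 0.19, adjusted p = 1.37e-07).

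**Figure D3:**
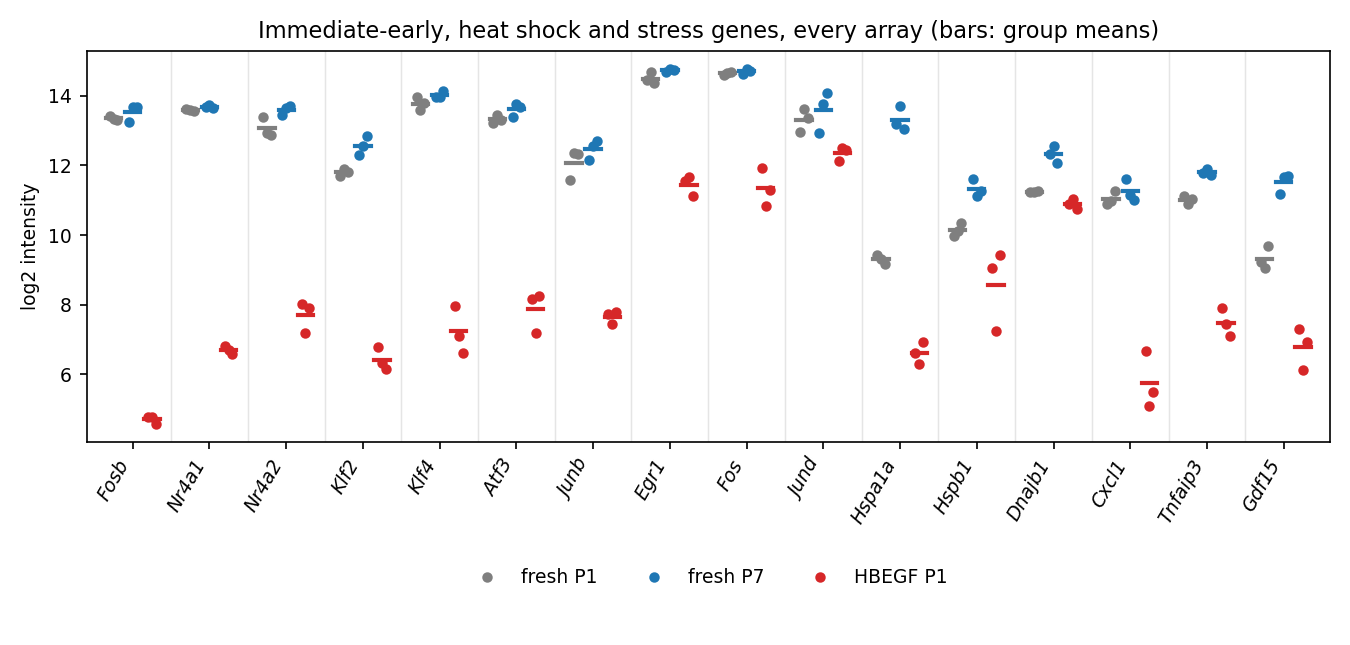
Log2 intensity on every array for immediate-early genes (Fosb to Jund), heat shock genes (Hspa1a, Hspb1, Dnajb1), inflammatory genes (Cxcl1, Tnfaip3) and the stress cytokine Gdf15, with fresh P1 cells in grey, fresh P7 cells in blue and HBEGF P1 cultures in red, and bars for group means. In each gene the red points lie below the blue ones, and for Hspa1a the grey points lie between them.

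Heat shock genes were less uniform. Of 19 measured members, 4 fell (Hspa1a, Hspb1, Dnajb4 and Dnajb1) and none rose, with a median change of -0.26. Hspa1a, the inducible Hsp70 chaperone, read 6.63, 6.30 and 6.93 in the cultures and 13.18, 13.70 and 13.03 in the fresh P7 cells (-6.68 ± 0.29, adjusted p = 7.9e-11). Its level in the fresh P1 cells was between the others, at 9.42, 9.32 and 9.17. Its probes may also detect the near-identical copy Hspa1b.

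Among 24 integrated stress response genes, 7 fell and 2 rose, with a median of -0.33. Gdf15, a secreted stress cytokine, read 7.30, 6.13 and 6.92 against 11.17, 11.67 and 11.70 (-4.73 ± 0.32, adjusted p = 1.42e-08), and Ppp1r15a, which restarts translation after stress, fell by 3.13. Atf5 rose by 1.66 (adjusted p = 0.000126), and Asns, asparagine synthetase, rose by 1.71 (adjusted p = 0.0119). Without HBEGF P1 replicate 3 Asns had an adjusted p of 0.0506 and the higher count was 1. The lower count was 4 without HBEGF P1 replicate 2 or fresh P7 replicate 3, and 5 without any other array.

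Some astrocyte genes fell in culture and no marker was called higher. Of 28 measured astrocyte markers, 8 fell (28.6%), with a median of -0.41, and 18 had each culture array below each fresh P7 array (all genes, 19.5%). Another 4 had each culture array above each fresh P7 array (all genes, 25.4%), and the largest rise was 1.54. With only the 6 arrays fitted, or with the replicate number as a block, 1 marker was called higher. The mean log2 intensity of the list was 11.83 to 12.03 on the culture arrays, 12.61 to 12.67 on the fresh P7 arrays and 11.88 to 12.05 on the fresh P1 arrays. The markers that fell were Cbs, Slc1a2, Cldn10, Slc25a18, Slc4a4, Aldh1l1, Itgb5 and Fgfr3. Cbs, an enzyme of cysteine synthesis from homocysteine, read 6.93, 7.68 and 7.88 in culture and 12.30, 12.30 and 12.39 in the fresh P7 cells (-4.83 ± 0.25, adjusted p = 4.72e-10). Aldh1l1, a folate enzyme used to identify astrocytes, read 10.89, 10.95 and 11.15 against 12.38, 12.53 and 12.76 (-1.56 ± 0.25, adjusted p = 0.00018). Neither gene's groups overlapped, and both had fresh P1 levels near those of the fresh P7 cells.

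Markers that were not called included structural and coupling genes of the cell. The change was 0.57 ± 0.28 for Gfap (adjusted p = 0.174), -0.09 ± 0.10 for Gja1, the main connexin, -0.33 ± 0.24 for the water channel Aqp4 and 0.05 ± 0.12 for Apoe, the main lipoprotein of the brain. For S100b, a calcium-binding protein, it was 0.56 ± 0.20 (adjusted p = 0.0498), and for the filament gene Vim 0.82 ± 0.11 (adjusted p = 5.94e-05), both under the fold limit. Gfap was one of the genes for which the fresh P1 cells were lower than both, at 12.03, 12.76 and 12.70. Gjb6, the second astrocyte connexin, had the wide error of -1.40 ± 1.28 (adjusted p = 0.494), although its arrays did not overlap. This error is pooled over all 7 groups of the series. Kcnj10, the Kir potassium channel of astrocytes, was dim on every array used and differed by -0.66 ± 0.09. Fgfr3, a growth factor receptor, fell by 1.38 (adjusted p = 0.0171), and its adjusted p was 0.055 without HBEGF P1 replicate 3 and 0.0543 without fresh P7 replicate 1.

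**Figure D4:**
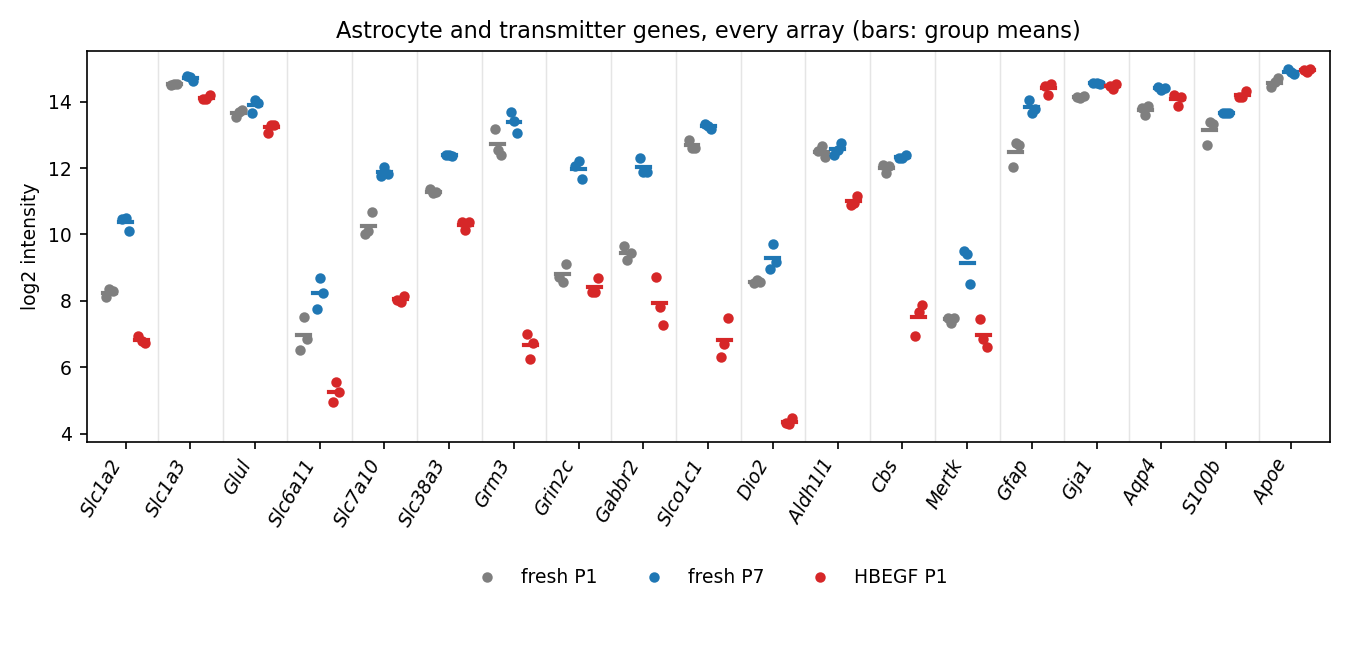
Log2 intensity on every array for astrocyte, transporter and receptor genes, with fresh P1 cells in grey, fresh P7 cells in blue, HBEGF P1 cultures in red and bars for group means. In Slc1a2 and Grin2c the blue points lie highest, in Gja1, Aqp4 and Apoe the 3 groups lie close together, and in Grm3, Slco1c1 and Cbs grey and blue are both high and red is low.

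Transporters of transmitters fell broadly. Of 18 measured transporters and glutamine cycle genes, 10 fell (55.6%) and 1 rose, with a median of -1.08. Slc1a2, the glutamate transporter GLT-1 that carries most glutamate uptake in the adult forebrain, read 6.94, 6.79 and 6.73 in culture, 10.47, 10.51 and 10.12 in the fresh P7 cells and 8.10, 8.36 and 8.28 in the fresh P1 cells. The culture values were below both fresh groups, and the fall against the fresh P7 cells was 11.7-fold (-3.55 ± 0.20, adjusted p = 1.4e-09). Slc1a3, the transporter GLAST of young astrocytes, read 14.08, 14.08 and 14.21 against 14.77, 14.76 and 14.63, a difference of -0.60 (adjusted p = 0.0403) that was under the fold limit. Glutamine synthetase, Glul, differed by -0.66 (adjusted p = 0.0142).

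Slc6a11, the GABA transporter GAT-3, fell by 2.98 ± 0.24, from 7.76, 8.70 and 8.23 to 4.95, 5.56 and 5.24. Slc7a10, a carrier of serine and other small amino acids, fell by 3.83, and Slc38a3, the glutamine exporter, fell by 2.10. The exception was Slc38a1, a glutamine importer usually described in neurons, which rose from 9.59, 8.87 and 9.59 to 11.24, 11.22 and 11.04 (1.82 ± 0.31, adjusted p = 0.000419). Against the fresh P1 cells, 5 members of the list were lower in culture and 2 higher (all genes, 4.49% and 4.38%), and from P1 to P7 in the brain 5 were higher and 1 lower (all genes, 1.37% and 0.183%). The higher count of 1 against the fresh P7 cells was 2 without HBEGF P1 replicate 2.

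Receptors for transmitters fell with them. Of 28 measured receptors, 9 fell (32.1%) and none was called higher, with a median of -0.38, and the count of falls was 9 without each array in turn. The largest rise was 1.54. With only the 6 arrays fitted, with the replicate number as a block or with the probe set of highest variance, 1 receptor was called higher. Grm3, the metabotropic glutamate receptor of mature astrocytes, read 6.99, 6.25 and 6.73 in culture and 13.69, 13.40 and 13.04 in the fresh P7 cells, a 105-fold fall (-6.72 ± 0.33, adjusted p = 3.23e-10). It was already at 13.19, 12.55 and 12.39 in the fresh P1 cells. Grin2c, a subunit of the NMDA receptor, had another pattern, with 8.26, 8.27 and 8.67 in culture, 12.05, 12.21 and 11.66 in the fresh P7 cells and 8.71, 8.56 and 9.11 in the fresh P1 cells. Its fall against the fresh P7 cells was 11.9-fold (-3.57 ± 0.21, adjusted p = 2.77e-09), and its change against the fresh P1 cells was -0.39.

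Other receptors that fell had fresh P1 levels of several kinds. Gabbr2, a GABA-B receptor subunit, fell by 4.08 and had a fresh P1 mean of 9.44, between the means of the cultures (7.94) and of the fresh P7 cells (12.02). Gpr37, an orphan receptor, fell by 3.29 from 9.47, 8.40 and 8.86 to 5.60, 5.04 and 6.24, with fresh P1 values of 6.07, 6.12 and 6.57. The GABA-A subunit Gabra2 and the cannabinoid receptor Cnr1 fell by 3.84 and 2.91, with fresh P1 levels above those in culture, and Gabrb1, Gabrg1 and Adora2b fell by 2.64, 2.22 and 1.93.

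Among ion channels and pumps, 2 of 20 fell and 1 rose. The rise was Scn7a, a sodium channel gated by sodium concentration, and it was the largest of any gene. Scn7a read 11.21, 11.51 and 12.08 in culture, 6.64, 5.30 and 6.37 in the fresh P7 cells and 5.43, 5.32 and 5.62 in the fresh P1 cells. Both fresh groups were dim and the cultures bright, and the rise against the fresh P7 cells was 45.0-fold (5.49 ± 0.56, adjusted p = 2.15e-06). The bicarbonate transporter Slc4a4 fell by 1.86 and the sodium pump subunit Atp1b1 by 1.73.

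The genes that bring thyroid hormone into astrocytes and activate it were among the largest falls. Slco1c1, the thyroxine carrier, read 6.31, 6.69 and 7.48 in culture and 13.33, 13.27 and 13.19 in the fresh P7 cells (-6.43 ± 0.28, adjusted p = 8.23e-11). Dio2, the deiodinase that makes the active hormone, read 4.31, 4.29 and 4.47 against 8.96, 9.70 and 9.17 (-4.92 ± 0.16, adjusted p = 2.4e-12). In both genes the cultures lay far below the fresh P7 cells, and the fresh P1 cells, with means of 12.68 and 8.57, lay near them. Klf9, a target of the hormone, fell by 1.26 (adjusted p = 0.000151). On the list of 18 thyroid hormone and retinoid genes these were the 3 that fell, and Aldh1a1, a retinoic acid-forming enzyme, rose by 2.50 (adjusted p = 0.00819). The higher count of the list was 2 without HBEGF P1 replicate 1, HBEGF P1 replicate 3 or fresh P7 replicate 3.

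Enzymes of sterol synthesis were lower together. Of 19 measured, 11 fell (57.9%) and none rose, with a median of -1.17, and the mean of the list was 10.64 to 10.73 on the culture arrays against 11.79 to 11.92 on the fresh P7 arrays. Insig1, the sterol sensor of the SREBP pathway, read 11.37, 11.76 and 11.15 against 13.51, 13.51 and 13.69 (-2.14 ± 0.23, adjusted p = 3.98e-06). Idi1, an isoprenoid enzyme, read 12.56, 12.33 and 12.41 against 14.26, 14.18 and 14.25 (-1.80 ± 0.19, adjusted p = 2.77e-06). Hsd17b7 fell by 2.61 and Stard4, a sterol carrier, by 1.97. None of these genes had overlapping arrays.

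Fatty acid and lipid export genes included 7 falls of 22 (31.8%) and no rise, with a median of -0.39. The count of falls was 5 or 6 without each array in turn. Lpl, lipoprotein lipase, read 7.09, 7.22 and 7.34 against 9.53, 9.63 and 9.82 (-2.44 ± 0.39, adjusted p = 0.000221), and Mylip, which degrades lipoprotein receptors, fell by 2.25. Fatty acid synthase, Fasn, fell by 1.26 (adjusted p = 0.00212), and the elongase Elovl6 by 1.30. The citrate carrier Slc13a5, which was on none of the lists, fell 39.6-fold, from 12.70, 12.41 and 12.45 to 6.98, 7.14 and 7.52 (-5.31 ± 0.19, adjusted p = 5.54e-12). Pla2g3, a secreted phospholipase, read 5.11, 5.71 and 5.66 against 12.21, 11.83 and 11.61 (-6.39 ± 0.50), and Itih3, a protein that binds hyaluronan, fell by 5.46. Both had fresh P1 values between the other groups.

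Few energy metabolism genes were called. Of 24 genes of glycolysis, lactate and glycogen, 3 fell and none rose, with a median of 0.02. They were Pdk4, which holds pyruvate back from the mitochondria (-2.95 ± 0.28, adjusted p = 1.03e-06), the glucose transporter Slc2a1 (-1.22) and the glycogen phosphorylase Pygm (-1.04). Pygm was not called without fresh P7 replicate 3 (adjusted p = 0.0503). Leaving out HBEGF P1 replicate 2, fresh P7 replicate 1 or fresh P7 replicate 3 gave 1 rise. Of 21 respiratory chain and mitochondrial genes, 0 were called by limma, and their median was 0.31, while 11 were higher and 1 was lower at an unadjusted p under 0.05. With HBEGF P1 replicate 1 or 2 or fresh P7 replicate 3 left out, 1 was called higher.

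Genes of the EGF receptor pathway, through which HBEGF acts, were mostly the same or lower in culture. Of 21 measured, 6 fell, 1 rose and the median was -0.57. Egfr, the receptor, read 12.61, 12.95 and 12.25 in culture and 12.27, 12.03 and 12.03 in the fresh P7 cells (0.49 ± 0.26, adjusted p = 0.203), and Hbegf read 8.91, 6.95 and 8.04 against 8.0, 8.68 and 8.38 (-0.39 ± 0.55, adjusted p = 0.684). Of the other ligands, amphiregulin, Areg, fell 45.4-fold, from 9.94, 10.35 and 10.08 to 5.04, 4.39 and 4.43 (-5.50 ± 0.49, adjusted p = 5.28e-07), and Tgfa rose by 1.57 (adjusted p = 0.000351). The feedback inhibitors Dusp5, Spry1, Lrig1, Dusp6 and Errfi1 fell by 4.37, 2.17, 1.79, 1.67 and 1.40. In the fresh P1 cells Areg, Dusp5, Spry1 and Lrig1 had means of 9.89, 10.32, 10.27 and 13.38. The fresh P7 means were 10.13, 10.46, 10.18 and 13.62. As for the immediate-early genes, the handling just before lysis and the state of the cells in the brain cannot be told apart. Dusp6 had an adjusted p of 0.0462 and was not called after any of the 6 arrays was left out, when it reached up to 0.146.

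In the Notch pathway the targets were lower and a ligand was higher. Of 25 Notch and progenitor genes, 6 fell and 3 rose, with a median of -0.51. The target Hes5 read 7.50, 9.71 and 8.80 in culture and 11.15, 12.51 and 12.80 in the fresh P7 cells (-3.48 ± 0.52, adjusted p = 0.000111). Its replicates spread widely in every group, with standard deviations of 1.11 in culture, 0.88 in the fresh P7 and 0.96 in the fresh P1 cells. Replicate 1 was the lowest in each group, and no culture array reached the fresh P7 cells. Hey2 read 9.79, 9.80 and 9.99 against 12.19, 12.56 and 12.39 (-2.52 ± 0.21, adjusted p = 1.86e-07), and the targets Nrarp and Hes1 fell by 2.33 and 2.15. The ligand Jag1 fell by 2.23, while the ligand Dll1 rose by 1.86 (adjusted p = 0.000976), from 7.74, 7.85 and 8.19 to 9.24, 10.67 and 9.43.

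TGF-beta and BMP genes included 7 falls and 2 rises among 21, with a median of -0.52. The ligand Bmp4 rose by 2.22 ± 0.51 (adjusted p = 0.00424), and the ligand Bmp6 rose by 2.36 (adjusted p = 0.0142). The ligand Bmp2 fell by 2.22 ± 0.42, the decoy receptor Bambi by 2.22 ± 0.29 and the target Id1 by 1.84 ± 0.24. Without HBEGF P1 replicate 3 or fresh P7 replicate 3 Bmp6 was not called (adjusted p up to 0.0649) and the higher count was 1. Among 14 insulin-like growth factor genes, 4 fell and none rose, namely Htra1, a protease (-3.85), the adaptors Irs2 (-2.20) and Irs1 (-1.5), and Igfbp4 (-1.05). Igfbp4 was not called without HBEGF P1 replicate 1 or without fresh P7 replicate 3, where its change was as small as -0.84.

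Many matrix genes were lower. Of 40 measured, 13 fell (32.5%), 1 rose and 26 were not called, with a median of -0.76. Tnc, the tenascin of young astrocytes, read 9.91, 8.28 and 10.07 in culture and 14.03, 14.18 and 14.02 in the fresh P7 cells (-4.66 ± 0.62, adjusted p = 3.47e-05). Tnr, a tenascin usually made by cells of the oligodendrocyte line, read 9.39, 7.25 and 8.23 against 5.08, 5.19 and 4.90 (3.24 ± 0.43, adjusted p = 4.01e-05). Both differed without overlap, in opposite directions. The protease Adamts1 fell by 4.44, the link protein Hapln1 by 3.80, the lectican Ncan by 2.93 and the collagen cross-linking enzyme Loxl1 (-2.67). The higher count was 2 without HBEGF P1 replicate 2 or fresh P7 replicate 1.

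Adhesion and guidance genes had 12 falls and 2 rises among 36, with a median of -0.63. Leaving out any 1 array gave 8 to 10 falls. The cell adhesion molecules Nrcam, Ntm and Ncam1 fell by 2.30, 2.15 and 2.09, and the integrin subunit Itga6 by 1.98. The rises were Sema3c, from 8.11, 8.08 and 8.26 to 11.03, 10.14 and 10.80 (2.50 ± 0.22, adjusted p = 4.29e-07), and Sema3e (1.52), both secreted guidance cues. Among 23 factors that astrocytes or neurons release at synapses, 4 fell, namely Gpc6 (-1.61), Bdnf (-1.61), Sparcl1 (-1.47) and Scg3 (-1.15). Sparcl1, hevin, which promotes synapse formation, read 12.75, 12.97 and 13.28 against 14.53, 14.53 and 14.33, and its antagonist Sparc differed by 0.57 (adjusted p = 0.024), under the fold limit. Npy rose by 2.17 (adjusted p = 0.0415), and its call was lost without HBEGF P1 replicate 1 or 3 and without fresh P7 replicate 1, 2 or 3 (adjusted p up to 0.128). Thbs1 has no value here.

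Of 19 phagocytosis genes, 7 fell and 2 rose, with a median of -0.53. Mertk, the engulfment receptor of astrocytes, read 7.45, 6.86 and 6.62 in culture, 9.50, 9.41 and 8.52 in the fresh P7 cells and 7.49, 7.33 and 7.49 in the fresh P1 cells. It fell by 2.17 ± 0.30 against the fresh P7 cells (adjusted p = 5.68e-05), and the culture and fresh P1 levels lay side by side. Gas6, the ligand that bridges Mertk to dying cells, rose from 9.17, 8.35 and 8.55 to 11.75, 11.45 and 12.06 (3.07 ± 0.27, adjusted p = 4.07e-07), while another probe set of Gas6 passed the adjusted p in the opposite direction. The count of falls was 3 without HBEGF P1 replicate 3 and 4 without fresh P7 replicate 3. The rise of Elmo1 (1.01) was lost without HBEGF P1 replicate 1 or 2 or fresh P7 replicate 2, where it was as small as 0.84, which left 1. Megf10 has no value here.

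Among the genes that were higher in culture, calcium-binding and membrane-binding proteins stood out. Of 20 S100 and annexin genes, 9 rose (45.0%) and 1 fell, with a median of 0.76. Anxa2, which links membranes to actin, read 11.70, 10.73 and 12.34 against 9.31, 9.43 and 8.70 (2.44 ± 0.42, adjusted p = 0.00036), and S100a11, a small calcium-binding protein, rose by 1.94 (adjusted p = 0.00515). Anxa5 and Anxa7 rose by 1.75 and 1.61. Anxa3 went the other way, from 8.62, 8.02 and 7.71 to 5.98, 5.78 and 5.64 (-2.31 ± 0.41, adjusted p = 0.000568). The count of rises was 5 without HBEGF P1 replicate 1, 6 without fresh P7 replicate 2 and 10 without fresh P7 replicate 1. The mean of the list was 9.82, 9.30 and 9.91 on the culture arrays and 9.41, 8.90 and 8.98 on the fresh P7 arrays, so these means overlapped.

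Actin cytoskeleton genes and targets of serum response factor moved both ways, with 4 rises and 4 falls among 26. Tagln, an actin-binding protein of smooth muscle, rose from 11.09, 10.77 and 11.50 to 13.90, 13.79 and 13.92 (2.76 ± 0.39, adjusted p = 7.11e-05), and Cald1, caldesmon, rose by 1.98 ± 0.16. The matricellular protein gene Ccn1 fell 38.1-fold, from 12.67, 13.72 and 13.49 to 8.34, 7.45 and 8.33 (-5.25 ± 0.49, adjusted p = 9.29e-07), and the nuclear lamin gene Lmna fell by 1.51. The other 2 rises, Myl9 (1.05) and Tpm1 (1.25), had adjusted p values up to 0.111 and 0.119 when 1 array was left out. Neither was called without HBEGF P1 replicate 1, HBEGF P1 replicate 3 or fresh P7 replicate 2, which left 2 rises, and Tpm1 was not called without fresh P7 replicate 1 either. The fall of Ccn2 (-1.31) was -0.98 and not called without HBEGF P1 replicate 2.

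Antioxidant genes were higher more often than lower. Of 33 measured, 7 rose (21.2%) and 3 fell, with a median of 0.48. Gsta1, a glutathione transferase, read 12.34, 11.85 and 11.93 in culture, 8.56, 7.68 and 7.42 in the fresh P7 cells and 5.00, 5.78 and 6.20 in the fresh P1 cells (4.16 ± 0.34, adjusted p = 1.86e-07). The 3 groups were ordered without overlap. Gstp1, another transferase, read 14.12, 14.01 and 13.95 against 11.74, 11.35 and 11.63 (2.45 ± 0.20), and Gclc, the rate-limiting enzyme of glutathione synthesis, rose by 1.19 ± 0.17. The falls were Gpx7, Gpx3 and Sod3 (-1.17, -1.11 and -1.07), of which 1 was left without HBEGF P1 replicate 2, fresh P7 replicate 1 or fresh P7 replicate 3. The Gsta genes are close copies, so the probes may not separate them.

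Of 18 p53 targets and death or survival genes, 4 rose and 3 fell. The death receptor Fas read 9.57, 8.85 and 10.27 in culture and 5.89, 5.80 and 6.52 in the fresh P7 cells (3.49 ± 0.50, adjusted p = 7.91e-05). Phlda3 and Ccng1, both p53 targets, rose by 2.23 and 1.28, and Aen by 1.11. Gadd45b and Plk2, which also respond early to stimuli, fell by 4.57 and 3.94, and the survival gene Mcl1 fell by 1.52. Aen lost its call without fresh P7 replicate 2, where its change was just under the limit of 1. Gpnmb, a lysosomal membrane glycoprotein, rose from 9.97, 9.76 and 10.50 to 13.38, 13.37 and 13.17 (3.23 ± 0.47, adjusted p = 9.54e-05). It was 1 of 2 rises among 17 lysosome and autophagy genes. The other, Sqstm1 (1.01), lost its call when replicate 2 or 3 of the cultures was left out, or replicate 1 or 3 of the fresh P7 cells (adjusted p up to 0.0693).

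Cell cycle genes tended to be lower. Of 37 measured, 7 fell (18.9%) and none rose, with a median of -0.51. The proliferation marker Mki67 read 9.74, 9.80 and 10.05 in culture, 11.45, 11.07 and 11.63 in the fresh P7 cells and 12.23, 11.36 and 11.27 in the fresh P1 cells (-1.52 ± 0.36, adjusted p = 0.00492). The mitotic genes Kif11, Bub1 and Bub1b fell by 1.5, 1.47 and 1.25. HBEGF P1 replicate 3 was the highest of the cultures for each of these 4 genes. The count of falls was 4 when HBEGF P1 replicate 1, HBEGF P1 replicate 2 or fresh P7 replicate 3 was left out. In the first of these cases 1 gene rose, and in the last 2 did.

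Of 27 reactive astrocyte and acute-phase genes, 6 fell and 3 rose, with a median of -0.25. Ptgs2, the inducible cyclooxygenase, fell by 3.96 ± 0.83 (adjusted p = 0.00202) and the membrane protein gene Emp1 changed by -3.21 ± 0.30. Cp, ceruloplasmin, rose by 1.93 ± 0.32 (adjusted p = 0.000325). The other rises, S100a10 (1.17) and S1pr3 (1.52), had adjusted p values of up to 0.0515 and 0.0859 when 1 array was left out. Neither was called without HBEGF P1 replicate 1, which left 1 rise, and S1pr3 lost its call also without HBEGF P1 replicate 3, fresh P7 replicate 2 or fresh P7 replicate 3. Among 26 interferon and antigen presentation genes, 1 fell, Irf1, a transcription factor (-1.45 ± 0.24, adjusted p = 0.000313), and none rose.

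Markers of other cells of the brain differed between the groups in both directions. In these bulk samples, fewer cells of a type and less RNA per cell cannot be told apart. Neuron markers were higher in the cultures. Of 26 measured, 11 rose (42.3%) and none fell, with a median of 0.69, and the mean of the list was 7.84, 7.87 and 8.15 on the culture arrays, 6.75, 6.64 and 6.69 on the fresh P7 arrays and 7.33 to 7.62 on the fresh P1 arrays. Leaving out 1 array gave 8 to 11 rises. Gad1, the enzyme that makes GABA, read 8.71, 8.58 and 9.93 against 4.51, 4.22 and 4.29 (4.73 ± 0.93, adjusted p = 0.00124). Dcx, a microtubule protein of migrating young neurons, read 10.22, 10.01 and 10.68 against 6.63, 6.15 and 6.67 (3.82 ± 0.80, adjusted p = 0.00209), and in the fresh P1 cells it read 8.18, 8.15 and 8.81. HBEGF P1 replicate 3 had the highest value of both, and no array of one group reached the other.

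Stmn2 and Tubb3, microtubule genes of neurons, rose by 4.31 and 3.84, and Uchl1 and Mapt by 2.50 and 2.41. Several regulators of neuron fate were among the largest rises, namely Dlx1, a homeobox gene of forebrain GABA neurons (5.34 ± 1.19, adjusted p = 0.00313), Bcl11b (3.97) and Myt1 (3.75). Dlx1 read 11.33, 11.68 and 12.52 in culture, 6.55, 6.35 and 6.60 in the fresh P7 cells and 7.89, 7.95 and 9.18 in the fresh P1 cells. Markers of mature synapses were not called, with differences of 0.23 for Snap25, 0.08 for Syt1 and 0.11 for Slc17a7, and Syt1 and Slc17a7 were dim throughout. Igfbpl1 rose by 2.95 (adjusted p = 0.033), and its call was lost without HBEGF P1 replicate 3, fresh P7 replicate 2 or fresh P7 replicate 3 (adjusted p up to 0.14).

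Of 7 oligodendrocyte progenitor markers, 3 rose and none fell, and the mean of the list was 9.32 to 9.62 in culture, 8.15 to 8.46 in the fresh P7 cells and 8.22 to 8.31 in the fresh P1 cells. Pdgfra, the growth factor receptor of these progenitors, read 13.40, 13.21 and 13.09 in culture and 9.79, 9.04 and 9.58 in the fresh P7 cells (3.76 ± 0.68, adjusted p = 0.000572), and the lineage factor Sox10 read 8.54, 7.50 and 7.53 against 5.58, 5.92 and 6.07 (2.00 ± 0.21, adjusted p = 4.01e-06). Lhfpl3 rose by 1.70 (adjusted p = 0.0211), but was not called without HBEGF P1 replicate 2 or fresh P7 replicate 2 (adjusted p up to 0.0936). The others were Olig1 (0.38), C1ql1 (0.84), Olig2 (-0.09) and Cspg4 (-0.74), the last lower in culture but under the fold limit. Of 13 oligodendrocyte markers, Ugt8 (1.44) and Myrf (1.05) rose. Myrf lost its call without culture replicate 1 or 3 and without any 1 of the fresh P7 arrays (adjusted p up to 0.168), which left 1 rise. Mbp, myelin basic protein, was uneven in culture, at 10.52, 6.68 and 10.99 against 6.78, 7.09 and 7.41 (2.30 ± 0.90, adjusted p = 0.0747). The part of RNA from neurons and oligodendrocyte progenitors in the rises given above, among them Tnr, Npy and Slc38a1, was not tested.

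Microglia and macrophage markers were lower in the cultures. Of 20 measured, 8 fell (40.0%) and none rose, with a median of -1.29, and the mean of the list was 5.57, 5.62 and 5.75 in culture, 7.53, 6.69 and 6.94 in the fresh P7 cells and 5.99 to 6.31 in the fresh P1 cells. Csf1r, the growth factor receptor on which microglia depend, read 5.17, 5.14 and 5.20 in culture and 8.80, 7.06 and 7.77 in the fresh P7 cells (-2.70 ± 0.50, adjusted p = 0.000801). The cultures were dim and even, and fresh P7 replicate 1 stood highest. Tyrobp and Fcer1g, adaptors of immune receptors, both fell (-2.96 and -3.08) and had the same order of fresh P7 arrays. Other defining markers, Cx3cr1, Aif1 and Ptprc, were dim in both groups, with differences of -0.05, 0.30 and -0.08, and another probe set of Aif1 passed the adjusted p in the opposite direction. The count of falls was 5 without HBEGF P1 replicate 1, HBEGF P1 replicate 2 or fresh P7 replicate 1.

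Chemokine and cytokine genes were lower beside them. Of 25 measured, 14 fell (56.0%) and none rose, with a median of -1.58, and the list mean was 7.11, 6.61 and 6.95 in culture and 8.94, 8.25 and 8.43 in the fresh P7 cells. Cxcl1, a chemokine for neutrophils, read 6.66, 5.10 and 5.51 against 11.60, 11.14 and 11.02 (-5.49 ± 0.59, adjusted p = 3.98e-06), and Tnfaip3, a brake on NF-kappaB, read 7.91, 7.44 and 7.11 against 11.77, 11.89 and 11.72 (-4.31 ± 0.27). Both were even across the fresh P7 arrays, and their fresh P1 means were also high, at 11.04 and 11.01. As for the immediate-early genes, the handling just before lysis and the state of the cells in the brain cannot be told apart here. Ccl3, a chemokine typical of microglia, read 10.93, 7.96 and 10.11 on the fresh P7 arrays and Cxcl2 read 10.18, 7.60 and 8.15, with fresh P7 replicate 1 highest and replicate 2 lowest, the order of the microglia markers. They fell by 3.32 and 3.75. The part of microglial RNA in these falls was not tested.

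**Figure D5:**
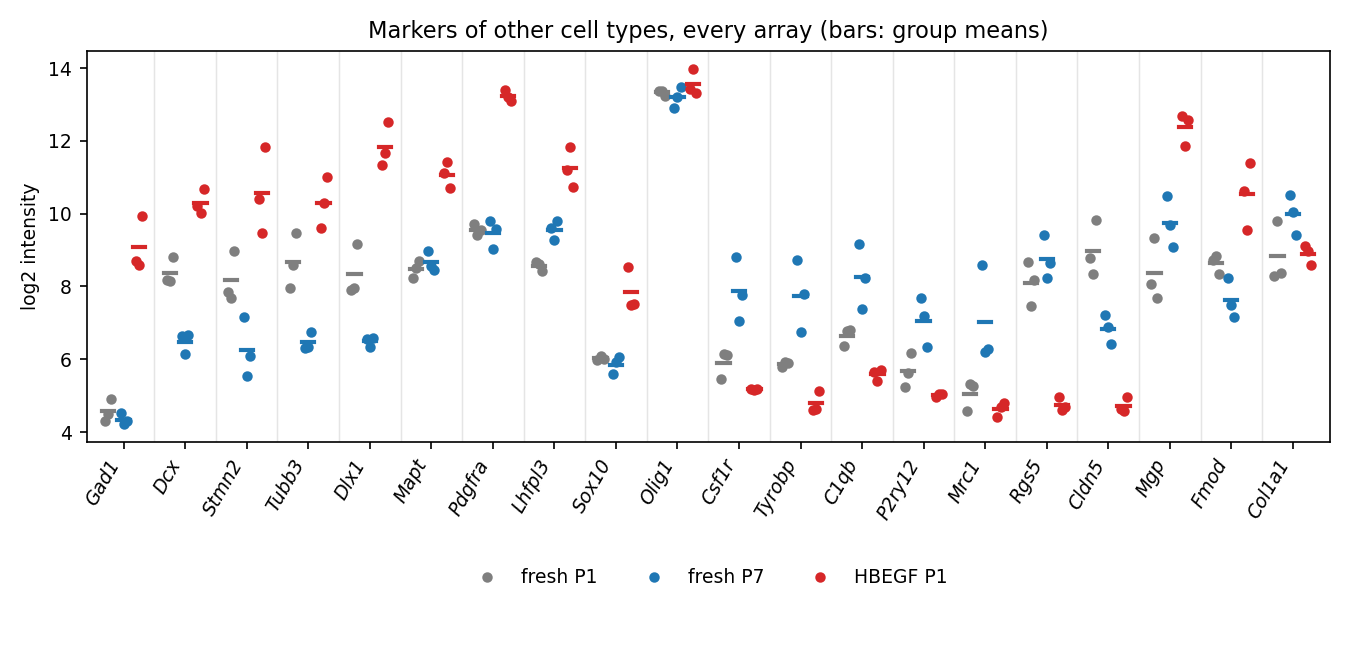
Log2 intensity on every array for markers of other cell types, with fresh P1 cells in grey, fresh P7 cells in blue, HBEGF P1 cultures in red and bars for group means. Red points lie above blue ones for the neuron and oligodendrocyte progenitor genes that were called, and below them for the microglia genes that were called.

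A few vessel markers were called lower in the cultures, and meningeal markers were mixed. Of 16 endothelial markers, Cldn5, a tight junction gene, fell by 2.12 ± 0.26, from 7.22, 6.88 and 6.41 to 4.62, 4.56 and 4.97, and Slc2a1 fell by 1.22. Slc2a1, which is also on the glycolysis list, had a fresh P7 mean of 11.57, far above the rest of these levels. The endothelial list had 12.5% of its members called lower (all genes, 6.3%) and a median change of -0.07. Its mean was 5.82 to 5.92 in culture and 6.01 to 6.35 in the fresh P7 cells, under the median level of all genes, 7.11. Pecam1 and Tek differed by -0.04 and -0.11. Of 12 mural markers, Rgs5, a pericyte gene, fell by 4.02 ± 0.34 from 9.40, 8.22 and 8.66 to 4.95, 4.59 and 4.68, and Pdgfrb (-1.03) and Higd1b (-1.0) fell as well, while Tagln, given above, rose by 2.76. The mean of the mural list was 6.87 to 6.96 in culture and 7.28 to 7.57 in the fresh P7 cells. Neither Pdgfrb (adjusted p up to 0.0686) nor Higd1b (change as small as -0.75) was called without HBEGF P1 replicate 1, HBEGF P1 replicate 3 or fresh P7 replicate 1, and the count was then 1; Pdgfrb lost its call without fresh P7 replicate 3 too. Of 18 fibroblast and meningeal markers, Fmod and Mgp rose by 2.89 and 2.62 (11.1% higher) and Fbln1 fell by 1.76 (5.56% lower), and without fresh P7 replicate 3 there were 2 falls. Of 9 ependymal and choroid plexus markers, 0 were called by limma, 2 were higher at an unadjusted p under 0.05, and 1 was called without HBEGF P1 replicate 2.

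Further genes among the largest changes were on none of the lists. Slc22a3, a transporter of organic cations, rose from 6.12, 5.41 and 6.11 to 10.28, 10.78 and 9.58 (4.33 ± 0.52, adjusted p = 1.25e-05), and Slc6a15, a carrier of branched amino acids, rose by 4.21 ± 0.54. Smoc2, a matricellular protein, and Pllp, a membrane protein of myelin, rose by 3.57 and 3.07, and the long noncoding RNA Miat rose from 10.15, 10.80 and 11.44 to 13.89, 14.37 and 13.66 (3.17 ± 0.53). The locus LOC100912227 rose by 4.07. Tfpi2, an inhibitor of serine proteases, fell from 10.20, 9.99 and 10.12 to 6.21, 4.50 and 4.76 (-4.95 ± 0.55, adjusted p = 6.25e-06). The fresh P1 levels of Slc22a3, Smoc2, Pllp and Tfpi2 were close to those of the fresh P7 cells.

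The 10 genes that were bright in both groups and differed least had changes of at most 0.01 in size. They included Pygb, the brain glycogen phosphorylase (12.93, 12.95 and 12.86 against 12.93, 12.88 and 12.94), the translation factor Eif1ax, the cohesin subunit Rad21, the adaptor Ywhaz, the respiratory chain gene Cox7b and Ndrg2. Ndrg2, an astrocyte marker, read 13.76, 13.93 and 13.82 in culture and 13.78, 13.89 and 13.82 in the fresh P7 cells (0.01 ± 0.20, adjusted p = 0.989). Arrays of both groups were interleaved for these genes.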

How the data were processed

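The deposited values are intensities that the authors summarised with RMA, according to the submitters' processing notes, with 1 value for each probe set on each array. They ran from 10.0 to 37801, a linear scale, so log2 was taken. Which RMA software and chip definition were used is not given in the sources used here. Of 31042 probe sets, 20826 had 1 gene symbol, 436 several and 9780 none. Each of 14217 genes was read through its probe set of highest mean. R 4.3.3 and limma 3.58.1 (lmFit, contrasts.fit, eBayes) fitted 7 group means to 21 arrays, with 14 residual and 2.89 prior degrees of freedom. The script was tested on simulated data.

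The members and lists were chosen with earlier results of these data known. The 37 lists held 851 symbols, of which 780 were measured. Genes named were the 20 largest rises and falls, up to 6 called members of each list with the largest change, 22 fixed genes and the 10 bright genes (mean log2 of at least 12) of smallest change. Others were chosen after their values were seen, to complete a count, for a promoter match or as defining markers. The number of arrays limits the precision, and an exact permutation test of 3 against 3 cannot go below p = 0.1. Alternatives changed the model, replicate block, normalization, centring, low-value filter, offset, probe set, prior, fold limit and arrays.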

Additional observations from a re-analysis of the deposited data

How the results depend on the processing

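No named gene that was called changed direction under the settings run, and of the 1442 called genes 1 was called with the opposite sign through the probe set of highest variance. The counts of called, higher and lower genes, 1442, 546 and 896, were 697, 197 and 500 at a fold limit of 1.5 on the log2 scale. Under the other settings the called count ran from 1177, with an offset of 32 added to the intensity, to 1614, with the probe set of highest variance. Leaving out 1 array gave 1290 to 1416 called, 409 to 604 higher and 793 to 881 lower. Centring on bright probe sets, chosen after seeing the data, gave 474 higher and 966 lower. With the replicate number as a block (the replicate block), 1482 genes were called. Same-numbered arrays had correlations of 0.447, 0.34 and -0.068 in their deviations from the group means. Arrays with different numbers had -0.444 to 0.172, so replicates 1 and 2 were each most alike under the same number. As 1 of the 3 was under 0.1, the numbers were not taken as pairs in the main fit, and a link between replicates 1 or 2 of the groups remains possible.

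Of 184 named genes that were called, 28 were not called after some array was left out, and 0 of the 40 largest changes were lost that way. Among the settings that kept all arrays, the offset lost 13 of the 184 and the mean of all probe sets lost 10. With the offset, the integrated stress response genes had 4 falls in place of 7, the mural markers 1 in place of 3 and the oligodendrocyte markers 0 rises in place of 2. With 3 arrays a group and no detection call, small changes of dim genes are the least certain.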

Other observations

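Some gene groups outside the lists were looked at after their values were seen, so the counts describe only the genes named. Several targets of Hedgehog and Wnt signals were lower in the HBEGF P1 cultures. Gli1, a Hedgehog target, read 6.17, 6.25 and 5.95 in culture and 10.22, 9.69 and 9.61 in the fresh P7 cells (-3.72 ± 0.17, limma adjusted p = 1.3e-10), and Gli2 fell by 1.52. The fresh P1 cells had a Gli1 mean of 9.24. Lef1, a Wnt effector, fell by 3.18 ± 0.31 (adjusted p = 1.18e-06), and the Wnt targets Nkd1 and Axin2 fell by 1.43 and 1.05. Smo, the Hedgehog signal transducer, differed by -0.05 (adjusted p = 0.886), and the Hedgehog target Hhip by -0.47 (adjusted p = 0.0332), under the fold limit and with overlapping arrays. Hhip was dim in both groups, with means of 4.44 in culture and 4.91 in the fresh P7 cells.

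Of the clock genes, Per1 read 8.60, 8.57 and 8.59 in culture and 11.01, 11.68 and 11.95 in the fresh P7 cells (-2.96 ± 0.19, adjusted p = 8.83e-09). Bhlhe40 fell by 3.50, Nr1d1 by 2.18 and Bhlhe41 by 1.21. Per2 differed by -0.91 (adjusted p = 0.0041), under the fold limit, and Bmal1, Dbp and Tef by 0.10, 0.48 and 0.00. In the fresh P1 cells Per1 and Bhlhe40 had means of 11.33 and 10.68, near the fresh P7 means of 11.54 and 10.81. Nr1d1 and Bhlhe41 were lower there, at 8.67 and 9.57 against 10.12 and 10.90. For Per1 and Bhlhe40, the handling just before lysis and the state of the cells in the brain cannot be told apart. Hsd11b1, which regenerates active glucocorticoid, fell by 3.23 ± 0.28 (adjusted p = 3.51e-07), and the hormone-responsive genes Sgk1 and Tsc22d3 fell by 2.41 and 1.60, while Fkbp5 differed by 0.52 (adjusted p = 0.142). The epithelial keratin genes Krt8 and Krt18 rose by 2.45 and 2.20. The proneural gene Neurog2 rose by 2.35 and the homeobox gene Dlx5 by 3.03. Tbr1 and Nkx2-1, markers of other forebrain neurons, differed by 0.08 and 0.04. Both were dim, with culture means of 4.63 and 5.62 and fresh P7 means of 4.54 and 5.58, so their small differences say little. The cortical regulators Emx1, Emx2 and Lhx2 differed by -0.77, -0.55 and -0.57, none of them called, with each culture array below the fresh P7 arrays, and Eomes by 0.77 with overlapping arrays. Hbb, beta-globin, was high on fresh P7 replicate 1, at 13.39 against 8.76 and 9.33 on the others and 7.30, 7.43 and 7.24 in culture. That replicate also had the highest microglia marker mean, 7.53. The fresh P1 arrays did not share this pattern, with Hbb at 11.28, 11.02 and 13.74 and microglia marker means of only 5.99, 6.31 and 6.29.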
